A study of Arabidopsis thaliana with 12 samples.

Results

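The WRKY transcription factors described here are the probe sets whose only paired gene in the platform annotation has a symbol made of WRKY and a number. The rule gave 6 of the 22746 probe sets of the array that are not controls: WRKY22 (AT4G01250), WRKY53 (AT4G23810), WRKY6 (AT1G62300), WRKY42 (AT4G04450), WRKY47 (AT4G01720) and WRKY20 (AT4G26640). RefSeq names 72 Arabidopsis genes WRKY by symbol or synonym, and 1 more of them, ZAP1 (AT2G04880, synonym WRKY1), was paired with a probe set and is given separately. The other genes of the family were not analysed here.

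WRKY factors are plant transcription factors that bind the W-box, a short DNA element found in the promoters of many defence and senescence genes and of WRKY genes themselves. Many of them are induced within minutes to hours of pathogen perception, wounding or other stress, often downstream of MAP kinase cascades. WRKY22 is known as a target of the MAP kinase cascade that follows perception of bacterial flagellin, and WRKY53 as a regulator of leaf senescence that also responds to stress.

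The study measured total RNA of Arabidopsis thaliana seedlings on ATH1 GeneChips, 1-colour arrays with 1 signal per probe set. All seedlings came from cold-treated seed and grew on agar plates with 1% sucrose. The 12-day-old groups were wild type Col-0, wild type Col-7, the mutant aba2 (also called gin1-3) and the mutant etr1 (allele etr1-1). The 14-day-old groups were Col-0 again and the mutant ein2 (allele ein2-1), and each of the 6 groups had 2 arrays. ABA2 encodes an enzyme of abscisic acid synthesis, ETR1 an ethylene receptor, of which etr1-1 is a dominant ethylene-insensitive form, and EIN2 a protein that every ethylene response is thought to pass through. The labels name no organ and leave unsaid with which wild type aba2 belongs and whether the replicates were separate cultures, so the p-values measure only the spread between these arrays. ETR1, EIN2 and ABA2 were not paired with a probe set, so the mutated genes were not checked here.

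Arrays agreed unequally well within groups. Between the replicates of a group, the SD over the 13648 tested probe sets of the difference in log2(signal + 50) ran from 0.227 in Col-0 at 14 d to 0.606 in Col-0 at 12 d. Replicate 1 of Col-0 at 12 d correlated with its own replicate at r = 0.911 and with replicate 1 of Col-7 at r = 0.974, over these probe sets. The paired marker of green tissue, RCA (Rubisco activase), had signals of 20343 to 29107, and the paired root marker, PYK10 (a root beta-glucosidase), 10070.1 to 17241, so both were high on all 12 arrays. In whole seedlings, more cells of a type and more RNA per cell cannot be told apart.

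Changes are differences of mean log2(signal + 50) from limma, fitted once to all 12 arrays, with Benjamini-Hochberg adjusted p-values over the 13648 tested probe sets and a threshold of 0.05. Probe sets with a mean signal under 122.3, the 40th percentile, were not tested. WRKY42 fell under this minimum, and the other 5 members were tested. WRKY53 passed it through the groups in which it is high, since all its signals in Col-0 at 12 d and in etr1 lie below 122.3. The added 50 makes the fold of a dim probe set smaller than the ratio of its signals, so ratios of mean signals are given beside the changes.

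**Figure D1:**
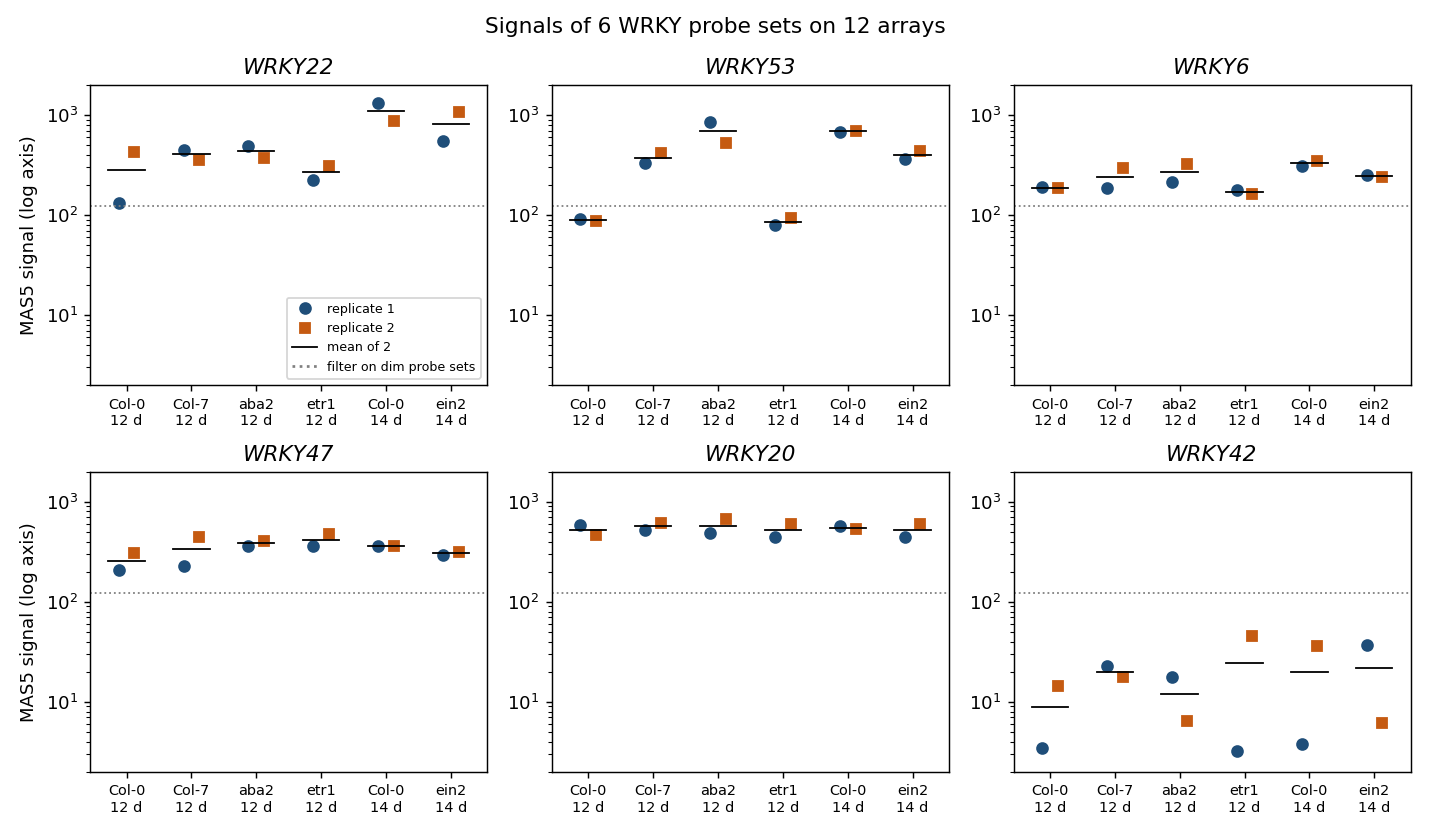
MAS5 signal (log axis) of the 6 WRKY probe sets in each of the 6 groups; circles are replicate 1, squares replicate 2, bars the mean of 2 arrays, and the dotted line is the filter at 122.3. WRKY53 lies under the line in Col-0 at 12 d and etr1 and above it elsewhere, WRKY22 is highest on the 4 arrays of 14-day-old seedlings, and WRKY42 is under the line on every array.

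WRKY53, the senescence- and stress-related member, ran from 79.3 to 849.0, a 10.7-fold range beside 9.90-fold for WRKY22 and 1.51- to 2.29-fold for the other tested members. Its signals were 79.3 and 92.4 in etr1 and 91.8 and 87.9 in Col-0 at 12 d. They were 328.2 and 417.1 in Col-7 and 359.7 and 435.3 in ein2. In aba2 they were 849.0 and 522.2, and in Col-0 at 14 d 683.0 and 688.9. The 6 groups thus fell into 3 levels of 2 groups each, with no array of one level reaching into the next: etr1 and Col-0 at 12 d lowest, Col-7 and ein2 in the middle, aba2 and Col-0 at 14 d highest. Within each level the arrays of the 2 groups overlapped. The nearest arrays of the middle and highest levels were 435.3 in ein2 and 522.2 in aba2. The levels were read from these same arrays, and the share of all probe sets that fall into such levels was not counted. The group means ± SD (n = 2) were 85.9 ± 9.25 in etr1, 89.9 ± 2.82 in Col-0 at 12 d, 372.7 ± 62.9 in Col-7, 397.5 ± 53.4 in ein2, 685.6 ± 231 in aba2 and 686.0 ± 4.12 in Col-0 at 14 d.

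In wild type Col-0, WRKY53 rose between 12 and 14 d by 2.40 ± 0.211 (log2, SE; limma adjusted p = 0.000562), and the mean signal was 7.63 times as high. Of the 13648 probe sets tested, 59 rose further. The change lay between 2.38 and 2.42 with any 1 of the 4 arrays left out, and passed the threshold each time. The 2 ages may also differ in harvest or culture, which cannot be told apart from age here.

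At 12 d, WRKY53 was also higher in the abscisic acid-deficient aba2 than in Col-0, by 2.36 ± 0.211 (adjusted p = 0.00131), with a mean signal 7.63 times as high. Only 25 tested probe sets rose further in that comparison. The change stayed past the threshold with each of the 4 arrays left out, when it ran from 2.03 to 2.68. In a fit of these 4 arrays alone the adjusted p was 0.0832. Against etr1, whose level was like that of Col-0, aba2 was higher by 2.40 ± 0.211 (adjusted p = 0.000364, 20 probe sets rose further), with a range of 2.08 to 2.73 and 4 of 4 passes when single arrays were left out.

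The size of the aba2 difference depended on the wild type. Against Col-7, aba2 was higher in WRKY53 by 0.77 ± 0.211, a ratio of 1.84, and all 4 arrays fell on their own side, but the change did not pass (adjusted p = 0.170; 95% interval 0.30 to 1.24). The change was 0.45 without aba2 replicate 1 and 1.10 without aba2 replicate 2, and passed with none of the 4 arrays left out. Col-7 itself was above Col-0 at 12 d by 1.59 ± 0.211, a ratio of 4.15, with 14 of the 13648 tested probe sets further up. That difference did not pass either (unadjusted p = 1.63e-05, adjusted p = 0.103), and passed at 0.0222 without replicate 1 of Col-0. The 2 wild types thus lay further apart in WRKY53 than aba2 and Col-7 did. Both comparisons use the Col-7 arrays, and the 2 differences were not tested against each other.

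The ethylene-insensitive mutants were each compared with Col-0 of their own age. In etr1, WRKY53 differed from Col-0 by -0.04 ± 0.211 (adjusted p = 0.978), with a 95% interval of -0.51 to 0.42. In ein2 it was lower on both arrays than on either array of Col-0 at 14 d, by -0.72 ± 0.211, at 0.579 times the mean signal. This did not pass over all groups (unadjusted p = 0.00613, adjusted p = 0.395) and passed in a fit of the 4 arrays of 14-day-old seedlings alone (adjusted p = 0.0282). The difference between the etr1 and ein2 effects was 0.68 ± 0.298 (unadjusted p = 0.0449, adjusted p = 0.9998). The aba2 effect against Col-7 exceeded the ein2 effect by 1.49 ± 0.298 (adjusted p = 0.0474), just inside the threshold.

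WRKY22, the member tied to flagellin signalling, separated the 2 ages. On the 4 arrays of 14-day-old seedlings its signals were 1306.8 and 869.3 in Col-0 and 555.7 and 1073.5 in ein2. At 12 d they were 132.0 and 430.6 in Col-0, 449.6 and 357.6 in Col-7, 490.9 and 374.7 in aba2, and 224.7 and 310.8 in etr1. Every array of 14-day-old seedlings was above all 8 of 12-day-old seedlings. The share of all probe sets separated in this way was not counted. In Col-0 alone, 24.5% of all tested probe sets had both older arrays above both younger ones. Only Col-0 was measured at both ages, and here too age cannot be told apart from harvest or culture. Within each age, neighbouring groups in the order of means overlapped, from etr1 through Col-0 and Col-7 to aba2 at 12 d and from ein2 to Col-0 at 14 d. The replicates of Col-0 at 12 d were 3.26-fold apart, the widest pair for this gene.

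In Col-0, WRKY22 rose from 12 to 14 d by 1.92 ± 0.426 (adjusted p = 0.0260), with a mean signal 3.87 times as high. This call depended on single arrays: leaving out 1 of the 4 gave changes of 1.22 to 2.62, of which only that without replicate 2 of Col-0 at 12 d passed (adjusted p = 0.00284). The others had adjusted p-values of 0.0615 (without replicate 1 of 12 d), 0.230 (without replicate 1 of 14 d) and 0.0711 (without replicate 2 of 14 d). In the fit of these 4 arrays alone the adjusted p was 0.190. No mutant differed from its wild type in WRKY22 beyond the spread of the arrays: the changes were 0.09 ± 0.426 in etr1, 0.09 ± 0.426 in aba2 against Col-7, 0.70 ± 0.426 in aba2 against Col-0, and -0.44 ± 0.426 in ein2. The 95% intervals were wide, for ein2 from -1.38 to 0.51.

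**Figure D2:**
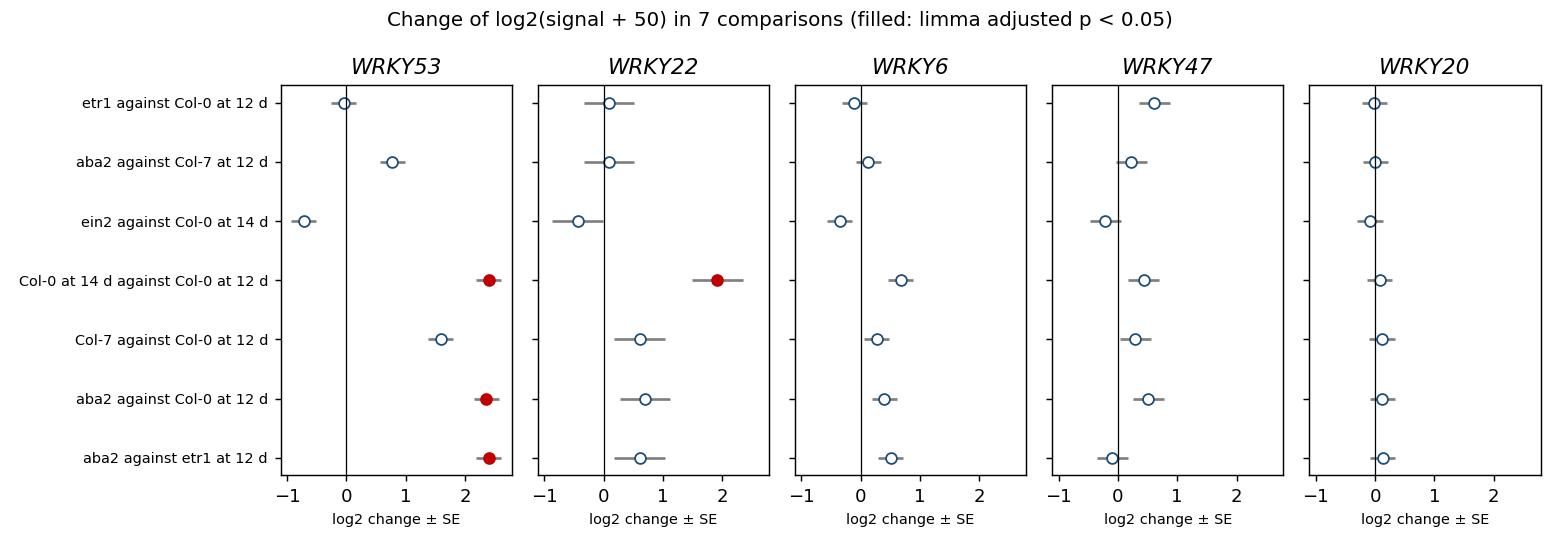
Change of log2(signal + 50) with its standard error (x axis) of the 5 tested WRKY members in 7 comparisons (y axis); filled points have a limma adjusted p under 0.05. Of 35 points, 4 are filled: WRKY53 in 3 comparisons and WRKY22 in the comparison of ages.

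WRKY6 is known from senescence, defence and phosphate transport. Its signals were 190.8 and 185.5 in Col-0 at 12 d, 188.1 and 297.2 in Col-7, 214.6 and 322.0 in aba2, and 180.2 and 162.1 in etr1. At 14 d they were 313.0 and 347.0 in Col-0 and 251.7 and 241.9 in ein2. The order of its 6 group means was that of WRKY53. Only etr1 was apart from its neighbour, and the whole range was 2.14-fold. The change from 12 to 14 d in Col-0 was 0.67 ± 0.209 with no overlap of the arrays, and did not pass (unadjusted p = 0.00883, adjusted p = 0.0901). In ein2 the change was -0.36 ± 0.209, with both arrays below those of Col-0, and in aba2 against etr1 it was 0.51 ± 0.209 (unadjusted p = 0.0354, adjusted p = 0.210).

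WRKY42, related to WRKY6 and also linked to phosphate supply, was at the bottom of the array's range. Its mean signal was 17.8, at percentile 15.4 of all probe sets. Single arrays ran from 3.19 to 45.2, and replicates were up to 14.1-fold apart. Each group overlapped its neighbour in the order of means, so no order can be read from these levels.

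WRKY47, a less studied member, was highest in etr1, at 357.9 and 475.6. Its signals were 207.5 and 307.7 in Col-0 at 12 d, 227.2 and 445.8 in Col-7 and 359.6 and 407.3 in aba2. At 14 d they were 358.6 and 361.6 in Col-0 and 291.0 and 318.5 in ein2. Both etr1 arrays were above both Col-0 arrays of the same age, by 0.61 ± 0.262, and this did not pass (unadjusted p = 0.0414, adjusted p = 0.482). Every group overlapped its neighbour in the order of means, and etr1 overlapped aba2 and Col-7.

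WRKY20, a member whose protein carries a pair of WRKY domains, had the narrowest range of the 5 tested members. Its lowest signal was 443.2 and its highest 667.3, a 1.51-fold range, and no 2 neighbouring groups were apart. Its changes in the 7 comparisons lay between -0.08 and 0.13. ZAP1, named WRKY1 by RefSeq, was likewise even, from 615.7 to 893.4, and passed in no comparison.

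Counted over the family, calls were few. In Col-0 at 14 d against 12 d, 2 of the 5 tested members passed, both upward, where 6.48% of all tested probe sets passed and 4.61% passed upward. In aba2 against Col-0 at 12 d, 1 of 5 rose (1.62% of all passed, 1.36% upward). In aba2 against etr1, 1 of 5 rose (5.19% of all passed, 3% upward). The difference of the aba2 and ein2 effects was called for 1 of 5, above 0, where 1.05% of all passed and 0.564% were above 0.

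No member passed in the other comparisons. In etr1 against Col-0 the limma count was 0 of 5 (1 at an unadjusted p under 0.05), where 0.462% of all tested probe sets passed. In aba2 against Col-7 it was 0 of 5 (1 unadjusted), with 0.454% of all, and in ein2 against Col-0 0 of 5 (1 unadjusted), with 0.374% of all. In Col-7 against Col-0 limma called 0% of all probe sets (0 of 13648, 654 at an unadjusted p under 0.05) and 0 of 5 members (1 unadjusted). For the difference of the etr1 and ein2 effects it was 0 of 5 (1 unadjusted), with 0.0147% of all. Of all 13648, the unadjusted counts were 1332 in etr1 against Col-0, 1680 in aba2 against Col-7 and 733 in ein2. For the difference of the etr1 and ein2 effects that count was 483.

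Separation of the arrays, with no test, was common on this table. From 12 to 14 d in Col-0, 4 of the 5 members had both older arrays above both younger ones, where 24.5% of all tested probe sets separated in that direction. In ein2, 3 of 5 were lower on both arrays (22.2% of all in that direction), namely WRKY53, WRKY6 and WRKY47. Separated upward were 3 of 5 in aba2 against Col-0 (15.9% of all upward), 3 of 5 in aba2 against etr1 (26% upward), 1 of 5 in aba2 against Col-7 (20.4% upward) and 1 of 5 in Col-7 against Col-0 (9.69% upward). In etr1 against Col-0, 1 was higher (19.3% of all) and 1 lower (16.1% of all).

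The members' medians showed the same directions. Over the 5 tested members the median change was 0.67 from 12 to 14 d and 0.51 both in aba2 against Col-0 and in aba2 against etr1. In ein2 it was -0.36, with all 5 changes below 0, where 48.9% of all tested probe sets were above 0. All 5 were above 0 from 12 to 14 d (50.4% of all), in aba2 against Col-0 (46.5%), in aba2 against Col-7 (49.3%) and in Col-7 against Col-0 (48.4%). The median was 0.13 in aba2 against Col-7, 0.29 in Col-7 against Col-0 and -0.01 in etr1 against Col-0. The median over all tested probe sets lay between -0.02 and 0.01 in these 7 comparisons. Comparisons that share arrays of Col-0, Col-7, aba2 or etr1 are not separate evidence.

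**Figure D3:**
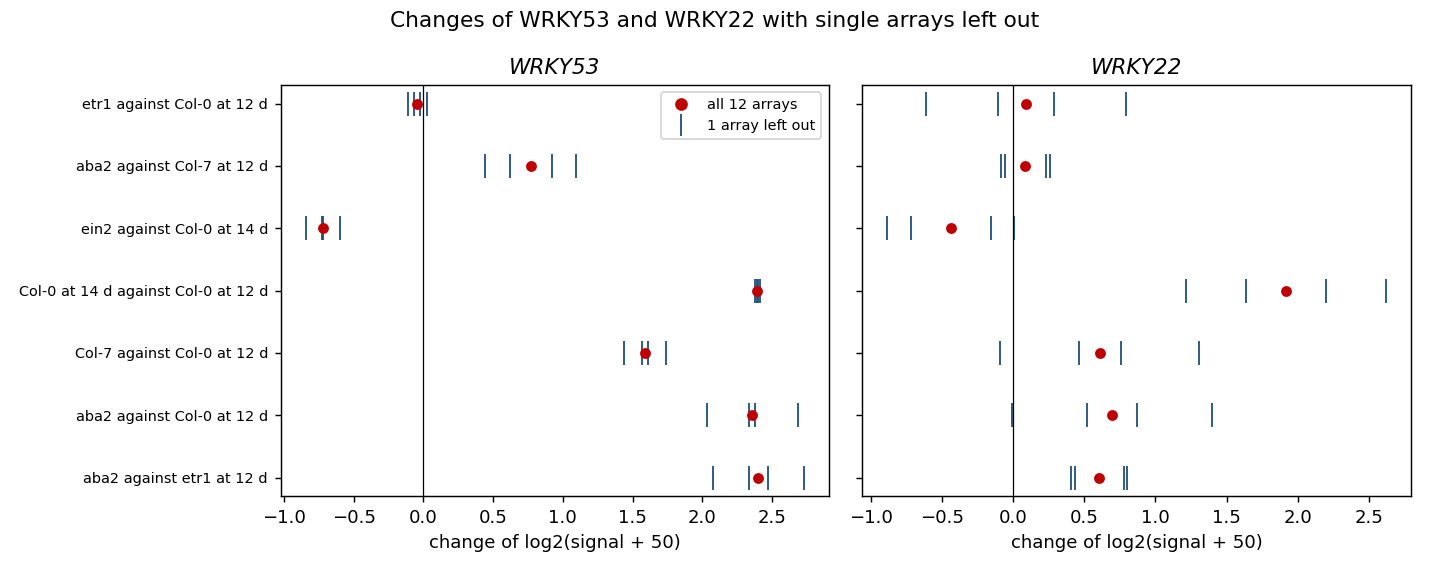
Change of log2(signal + 50) (x axis) of WRKY53 and WRKY22 in 7 comparisons (y axis); red points use all 12 arrays and each blue tick leaves out 1 array of the compared groups. The ticks of WRKY53 lie between 2.38 and 2.42 for the ages of Col-0, while those of WRKY22 spread from 1.22 to 2.62.

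The probe sets most like WRKY53 over the 12 arrays were sought among 7260 tested probe sets with 1 paired gene and no WRKY symbol. The 12 arrays share groups and replicates, so the correlations are descriptions. Probe sets were picked by correlation on these same arrays, so likeness of their levels to those of WRKY53 or WRKY22 follows from the choice. The closest was AT2G22880 (Pearson r = 0.978 on log2(signal + 50)), then AT5G65300 (0.959) and AT5G46710 (0.956), all given by locus code in the annotation used. Over 0.9 there were 22 candidates. AT2G22880 had signals of 9.90 and 32.6 in Col-0 at 12 d, 5.93 and 55.2 in etr1, 167.8 and 218.3 in Col-7 and 360.9 and 377.6 in ein2. In Col-0 at 14 d it had 810.4 and 641.4, and in aba2 970.4 and 486.2. Its arrays fell into the same 3 levels as those of WRKY53, but in the middle level both Col-7 arrays lay below both ein2 arrays. AT2G22880 and AT5G65300 passed the filter through the groups in which they are high. All their signals in Col-0 at 12 d and in etr1 lay below 122.3.

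The probe set most like WRKY22 was that of WES1, an auxin-conjugating enzyme also called GH3.5 (r = 0.946), followed by AT2G41640 (0.933) and AT5G56590 (0.927), with 14 candidates over 0.9. WES1 had 2502.1 and 2334.1 in Col-0 at 14 d and 1656.1 and 1911.9 in ein2. At 12 d its signals were 891.1 and 1559.0 in Col-0 and 918.8 and 1011.1 in etr1. All 4 arrays of 14-day-old seedlings were above those 4, and the dimmer array of Col-0 at 12 d was replicate 1, as for WRKY22. Among members, WRKY22 and WRKY53 had r = 0.70 and WRKY6 and WRKY53 r = 0.77 over the 12 arrays.

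**Figure D4:**
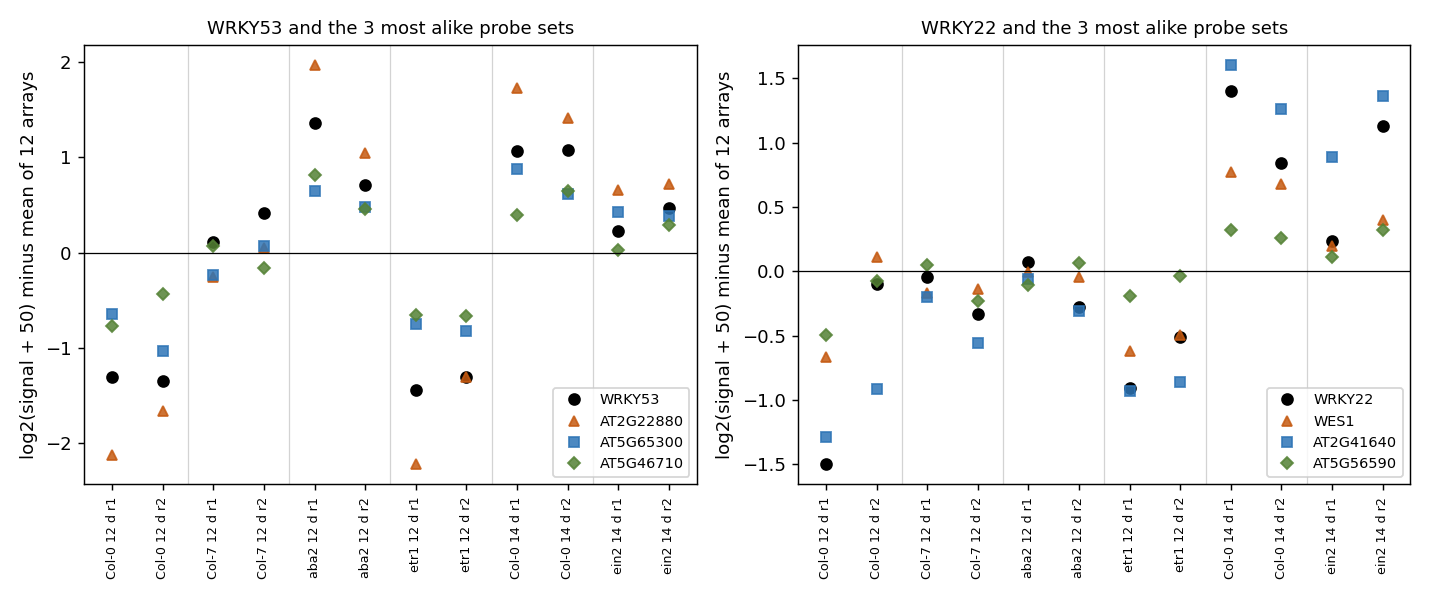
Deviation of log2(signal + 50) from each probe set's own mean over the 12 arrays (y axis), for WRKY53 and WRKY22 with the 3 probe sets most like each; r1 and r2 on the x axis are the replicates of a group. The points of WRKY53 and its 3 companions lie low in Col-0 at 12 d and etr1 and high in aba2 and Col-0 at 14 d, and those of WRKY22 are highest at 14 d.

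Genes of immune signalling were set beside the members from a list drawn up by symbol from the naming table. This list and those of calcium, defence and senescence genes below were chosen with earlier results of these data known. Their counts are therefore descriptions, and no excess over the share of all probe sets was tested. The immune list holds 12 immune receptors, kinases and regulators, of which 9 were tested. From 12 to 14 d in Col-0, 4 of 9 rose and none fell, beside 4.61% of all tested probe sets that rose. PUB22 and PUB23, ubiquitin ligases that dampen immune signalling, rose by 2.29 ± 0.256 (adjusted p = 0.00121) and 2.32 ± 0.266 (0.00128). PTI1-4, a protein kinase, rose by 1.37 ± 0.209 (0.00466), and BIK1, a kinase that acts with flagellin receptors, by 1.01 ± 0.260 (0.0471). The call of BIK1 was just inside the threshold, and under other settings its limma adjusted p reached 0.109. PUB22 passed the filter through the groups in which it is high. Its mean signal was below the filter in Col-0 at 12 d (83.3), in Col-7 (111.7) and in etr1 (110.0). Without replicate 1 of Col-0 at 14 d, 2 of the 9 passed.

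The same list had 3 of 9 higher in aba2 than in Col-0 at 12 d, and none lower, where 1.36% of all tested probe sets were higher. PTI1-4 rose by 1.56 ± 0.209 (adjusted p = 0.00574), PUB24, a ligase of the same group as PUB22, by 1.52 ± 0.269 (0.01999) and PUB22 by 1.37 ± 0.256 (0.0267). Without aba2 replicate 1 only 1 of the 9 passed, and without aba2 replicate 2 limma called 0. Against etr1, where 3% of all were higher, aba2 was again higher in PTI1-4 (1.4999 ± 0.209), PUB24 (1.42 ± 0.269) and PUB22 (1.08 ± 0.256), and only 1 of 9 passed whenever 1 of those 4 arrays was left out. In aba2 against Col-7 limma called 0 of the 9 (4 at an unadjusted p under 0.05), and in etr1, in ein2 and in Col-7 against Col-0 likewise 0 (1 unadjusted in each). Of all 13648 tested probe sets, the unadjusted counts in these comparisons were 1680, 1332, 733 and 654, in that order.

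Of 8 calcium sensors and rapid stress-response genes, 6 were tested. From 12 to 14 d in Col-0, 4 of 6 rose, beside 4.61% of all tested probe sets. STZ, a zinc-finger repressor linked to stress responses, rose by 2.98 ± 0.754 (adjusted p = 0.0430). Of the calmodulin-like genes, CML38 rose by 2.70 ± 0.367 (0.00271), CML23 by 1.26 ± 0.309 (0.0383) and CML42 by 0.85 ± 0.222 (0.0491). CML23 had a mean signal of 76.6 in Col-0 at 12 d and passed the filter through other groups. The call of CML42 between the ages was just inside the threshold, and under other settings its limma adjusted p reached 0.0986. With 1 array left out, 1 to 3 of the 6 passed, and only 1 without replicate 2 of 12 d or without either replicate of 14 d. CML42 was higher in aba2 than in Col-7 (1.56 ± 0.222, 0.0196, where 0.249% of all were higher), Col-0 (1.60 ± 0.222, 0.00627) and etr1 (1.64 ± 0.222, 0.00349). The call against Col-7 was lost without Col-7 replicate 1 or either aba2 replicate, and that against Col-0 without aba2 replicate 1. CML42 is the only one of the 6 called in these 3 comparisons, and it did not follow WRKY53 in Col-7, where its signals were 160.8 and 248.7, beside 196.5 and 190.5 in Col-0 at 12 d.

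Of 10 defence output and salicylic acid metabolism genes, 6 were tested, and from 12 to 14 d 1 rose and 1 fell, beside 6.48% of all that passed either way. GRX480, a glutaredoxin of salicylic acid responses, rose by 1.06 ± 0.180 (adjusted p = 0.00792) from a mean signal of 72.1, below the filter. PDF1.2, an antifungal defensin induced by jasmonate and ethylene, fell by 3.27 ± 0.713 on the log2 scale (0.0242), to a mean signal of 44.9 at 14 d, also below the filter. Its change ran from -4.15 to -2.35 under other settings and from -4.07 to -2.47 with single arrays left out. Without replicate 1 of Col-0 at 14 d limma called 0 of the 6, and PDF1.2 passed only when replicate 1 of 12 d was the array left out. Without replicate 1 of 12 d, 3 of the 6 passed. In the other 6 comparisons limma called 0 of the 6, with 1 or 2 at an unadjusted p under 0.05. Of all 13648 tested probe sets, 654 to 2750 had such a p in these comparisons.

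Of 4 senescence-associated genes, SAG29 and YLS5 were tested. SAG29, a sugar transporter named for its rise in ageing leaves, had signals of 577.8 and 125.7 in Col-0 at 12 d, 920.4 and 635.9 in Col-7, and 130.4 and 91.6 in aba2. Its change in aba2 against Col-7 was -2.35 ± 0.505 (unadjusted p = 0.000817, adjusted p = 0.0832), opposite in sign to that of WRKY53. From 12 to 14 d it was -1.14 ± 0.505 (adjusted p = 0.236). YLS5 had the sign of WRKY53 in both comparisons, with small changes of 0.21 ± 0.285 (adjusted p = 0.803) and 0.07 ± 0.285 (adjusted p = 0.926). None of these changes passed. In each of the 7 comparisons limma called 0 of the 2 genes, with 0 or 1 at an unadjusted p under 0.05. Of all 13648 tested probe sets, 654 to 2783 had such a p. Of 75 genes of these pathways and of tissue markers listed at first from textbook knowledge, 7 were paired with a probe set. The lists above were drawn up later from symbols that were paired. They leave out genes without a paired probe set and so cover only a part of each pathway.

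**Figure D5:**
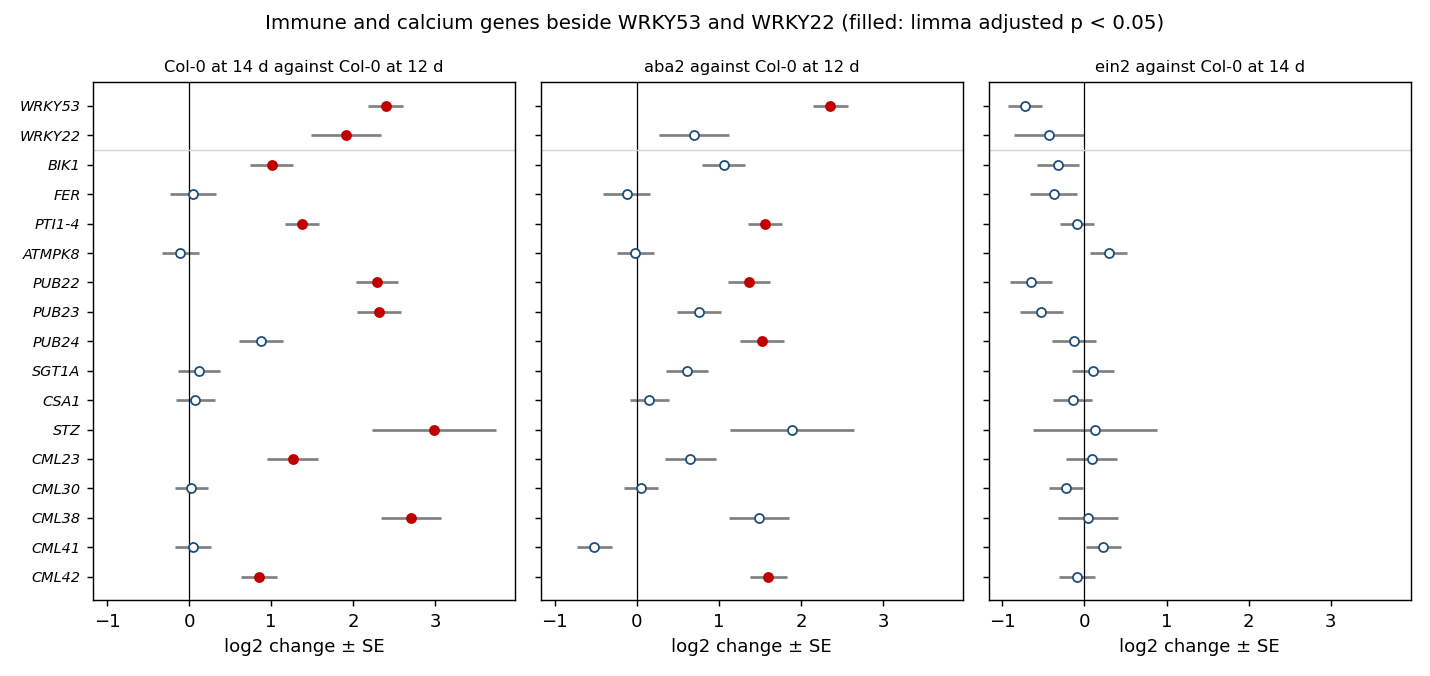
Change of log2(signal + 50) with its standard error (x axis) of WRKY53 and WRKY22 (above the grey line) and of the tested genes of the immune and calcium lists (below it), in 3 comparisons; filled points have a limma adjusted p under 0.05. From 12 to 14 d 4 of 9 immune and 4 of 6 calcium or stress genes are filled, in aba2 against Col-0 3 and 1, and in ein2 none.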

How the data were processed

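Total RNA of 12 seedling samples was hybridised to 12 ATH1 arrays, 2 per group, and the number of arrays limits the precision. The authors deposited linear signal intensity values made with Affymetrix Microarray Suite (MAS5), per the submitters' processing notes. The values showed a common trimmed mean of about 500.04 on every array, so they were already scaled when deposited. No detection calls were used, and no column of values was left out. Controls (64 of 22810 probe sets) were removed, each array was brought to the common trimmed mean (2% trimmed at each end), 50 was added and log2 taken, and probe sets under the 40th percentile of mean signal were not tested. Gene names came from the platform annotation, in which 13513 probe sets had 1 gene, 503 several and 8730 none there. Group means were fitted with limma 3.58.1 in R 4.3.3 (eBayes with trend, two-sided, Benjamini-Hochberg). The fit was first tried on simulated independent arrays with the same spread in every group. That simulation did not cover the unequal spread of these groups or the correlated deviations of same-numbered arrays, so it does not vouch for the calls. With 2 arrays against 2, an exact permutation test cannot go below p = 0.333, so none was used. Every member is named. From the pathway lists, genes past the threshold and up to 3 others are named, and for WRKY22 and WRKY53 the 3 most correlated probe sets. The members and lists were chosen with earlier results of these data known, and the lists of immune, defence, senescence and calcium genes after the naming table was read. Alternatives were other offsets (10 and 150), quantile normalization, no filter, a filter at the 60th percentile, a replicate block, fits of the compared groups alone and single arrays left out. No sequences are shown.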

Additional observations from a re-analysis of the deposited data

Results flagged for a closer look

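The effect of aba2 on WRKY53, measured against Col-7 at 12 d, was above that of ein2, measured against Col-0 at 14 d, by 1.49 on the log2(signal + 50) scale. It is listed because the difference between the 2 effects itself passed the test (limma adjusted p = 0.0474). Both aba2 arrays were above both Col-7 arrays, and both ein2 arrays were below both arrays of Col-0 at 14 d. Neither of these effects passed alone over all groups. Against Col-0 at 12 d, the other wild type of that age, aba2 did pass (2.36, limma adjusted p = 0.00131). The difference did not pass with an offset of 10 (adjusted p = 0.0550), without the filter (0.0849), with the filter at the 60th percentile (0.0592), with the replicate number as a block (0.0541) or with 7 of the 8 single arrays left out, and it passed without aba2 replicate 2 (0.0334). With single arrays left out it ran from 1.17 to 1.82.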

How the results depend on the processing

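Of 277 member changes recomputed under other settings, 260 kept their direction and side of the threshold, 6 lost and 3 gained a pass, and 8 changed sign. With single arrays left out, 120 of 156 were kept, 10 lost and 1 gained a pass, and 25 changed sign. The causes were not tested. WRKY20 against Col-7 in aba2 was -0.011 under quantile normalization. The WRKY count for the difference of the aba2 and ein2 effects was 0 with an offset of 10, without the filter and with the 60th percentile filter. Probe sets called there were 88 without the filter and 310 in the fit of the compared groups alone. For the etr1 and ein2 effects, probe sets called were 1 with an offset of 150 and 0 in the fit alone. In aba2 against Col-7 they were 41 with the 60th percentile filter and 7 in the fit alone. In the fit of the compared groups alone, probe sets called were 0 in etr1, 368 in ein2 (1 WRKY), 121 between the ages (1 WRKY), 6 in aba2 against Col-0 (0 WRKY) and 1894 in aba2 against etr1. The immune list then had 2 calls between the ages and 0 in aba2 against Col-0, the defence list 0 between the ages, and the calcium list 1 between the ages, 0 in aba2 against either wild type and 2 against etr1. The calcium list had 1 call between the ages without the filter and 2 with the 60th percentile filter, which left 1 immune call in aba2 against Col-0, 1 against etr1 and 1 defence call. WRKY6 was not tested at that filter. Of 136 counts recomputed under other settings, 111 stayed within 1.5 times.

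With single arrays left out, probe sets called ran from 6 to 417 in etr1, 143 to 1462 between the ages (WRKY 1 to 2), 0 to 465 in Col-7 against Col-0 (WRKY 0 to 1), 54 to 586 in aba2 against Col-0, 4 to 58 in aba2 against Col-7, 125 to 223 in aba2 against etr1, 12 to 17 in ein2, 0 to 12 for the etr1 and ein2 effects and 25 to 158 for the aba2 and ein2 effects (WRKY 0 to 1). Member changes that changed sign then ran as follows. In etr1, WRKY20 ran from -0.21 to 0.19, WRKY22 from -0.61 to 0.79 and WRKY53 from -0.11 to 0.027. Between the ages WRKY20 ran from -0.063 to 0.22. In Col-7 against Col-0, WRKY6 ran from -0.00033 to 0.54, WRKY20 from -0.022 to 0.26, WRKY22 from -0.091 to 1.31 and WRKY47 from -0.13 to 0.71. In aba2 against Col-0, WRKY20 ran from -0.089 to 0.33 and WRKY22 from -0.0039 to 1.40. In aba2 against Col-7, WRKY6 ran from -0.15 to 0.40, WRKY20 from -0.21 to 0.21, WRKY22 from -0.087 to 0.26 and WRKY47 from -0.20 to 0.64. In aba2 against etr1, WRKY20 ran from -0.077 to 0.34 and WRKY47 from -0.28 to 0.086. In ein2, WRKY20 ran from -0.27 to 0.10 and WRKY22 from -0.88 to 0.0085.

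Leaving out replicate 1 of both Col-0 at 12 d and Col-7 was chosen after seeing the data. Probe sets called were then 1097 in etr1, 553 in aba2 against Col-7, 2461 between the ages, 263 in Col-7 against Col-0 (1 WRKY, WRKY53) and 1322 in aba2 against Col-0. WRKY20 was then 0.13 and WRKY22 -0.61 in etr1, WRKY6 -0.15, WRKY20 -0.11 and WRKY47 -0.20 in aba2 against Col-7, and WRKY22 -0.24 in Col-7 and -0.0039 in aba2 against Col-0. WRKY6 passed between the ages (0.69, adjusted p = 0.0422), and the calcium list had 3 calls in aba2 against Col-0.

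Over 15 pairs of groups, the correlation of the deviations of same-numbered arrays ran from -0.26 to 0.54. It was 0.54 for Col-0 at 12 d with Col-7, 0.49 for Col-0 at 12 d with aba2 and 0.34 for Col-7 with aba2, and at most 0.11 for every other pair. The labels do not say what a number marks. With the replicate number as a block, probe sets called were 944 between the ages and 1 for the etr1 and ein2 effects. The WRKY count for the aba2 and ein2 effects was then 0 (WRKY53, adjusted p = 0.0541), and no other WRKY call changed.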
